A study of Mus musculus with 24 samples.

Results

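Chemokines, interleukins and related cytokines are the secreted signals with which tumour cells and their surroundings recruit and instruct leukocytes. The genes described here are the 75 protein-coding genes of the GENCODE vM21 annotation, of 21755 on chromosomes 1 to 19 and X, whose symbols mark them as ligands: Ccl and Cxcl chemokines, interleukins without their receptors, and Cx3cl1, Xcl1, Tnf, Csf1, Csf2, Csf3 and Lif. They were chosen by symbol and not by a measured value, although earlier results of these data were known. The readout was acetylation of histone H3 at lysine 9 (H3K9ac), a mark of active promoters, measured by ChIPmentation in 4T1 spheroids (4T1 is a mammary carcinoma line of the mouse).

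In a study of metastasis in palmitate-rich tissue, these libraries served to see whether the acetyltransferase KAT2a might act on the NF-κB subunit p65 by way of H3K9ac, and they include the loss of CPT1a, the enzyme that lets long-chain fatty acids enter mitochondria. All 4 groups were 4T1 spheroids collected on day 5, with 3 H3K9ac libraries each: scramble controls, CPT1a knockout, KAT2a knockout, and a second CPT1a knockout group that received 5 mM acetate, called the acetate group here. The medium of the scramble, CPT1a knockout and KAT2a knockout groups held 75 µM palmitate, and the study describes palmitate for the acetate group too, which its labels do not state. Per the study's methods, knockouts were made with an inducible Cas9 and guides to different exons of each gene, and neither the guide of each library nor whether the libraries of a group came from separate cultures is stated, so that p-values measure only the spread between these libraries.

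The 12 lists held 16201 to 34330 peaks, and their calling depth, the mean fragment coverage recovered from the values of each list, ran from 0.554 (CPT1a knockout replicate 3) to 2.52 (scramble replicate 1). Mean depth was highest in scramble, at 2.10 ± 0.364 (SD, n = 3), against 1.27 ± 0.626 in CPT1a knockout, 1.34 ± 0.632 in the acetate group and 1.503 ± 0.423 in KAT2a knockout. Depth thus moves with the contrast to scramble, and its part in those differences was not tested except where values at equal or similar depth are given. All 7 epithelial marker promoters (Epcam, Cdh1, Krt8, Krt18, Krt19, Cldn4 and Cldn7) held a peak in all 12 libraries. Of 8 leukocyte marker promoters, 7 held none in any library, and Cd68 held one in 2 scramble libraries. Of 6 fibroblast and endothelial marker promoters, Pdgfra was called in 12 libraries, Col1a1 in 11 and 4 in none. Among the epithelial markers, the rank of Epcam was higher than scramble in CPT1a knockout (31.0 ± 3.93 against 12.6 ± 1.73, limma adjusted p = 0.049) and in KAT2a knockout (47.3 ± 4.85, limma adjusted p = 0.014), and that of Cldn7 in KAT2a knockout (23.2 ± 1.10 against 0.957 ± 1.09, limma adjusted p = 0.014). Of the 7 epithelial markers, 1 passed in CPT1a knockout and 2 in KAT2a knockout, beside 10.6% and 3.83% of all genes tested. Krt8, Krt18, Cldn4 and Cldn7 had lower mean ranks than scramble in CPT1a knockout, as did Krt18 in KAT2a knockout, and none of these passed. Ranks here are percentiles of promoter peak strength within a library, and the part of these marker shifts in the ligand results was not tested.

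A promoter was taken as called in a library when a peak touched the 1 kb on either side of one of its annotated start sites. Most ligand promoters carried no H3K9ac peak in these cells. Of the 75 genes, 14 (18.7%) were called in all 12 libraries, 6 (8.0%) in 1 to 11 libraries and 55 (73.3%) in none. Over all protein-coding genes the corresponding shares were 49.5%, 5.36% and 45.1%. The 14 genes were Ccl25, Csf1, Csf3, Cx3cl1, Cxcl1, Cxcl16, Cxcl5, Il15, Il17d, Il18, Il23a, Il34, Il7 and Lif.

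Inflammatory chemokines and cytokines of this kind are classical targets of NF-κB and AP-1, which bind short motifs near the start site. The promoters of the neutrophil-attracting chemokines Cxcl1, Cxcl2 and Cxcl3 are shown because they lie in one gene cluster and differ in whether they held a peak (12, 0 and 4 libraries). Csf1 (12 libraries), Il6 (1 library) and Ccl20 (0 libraries) are shown as a constantly called, a once called and an uncalled ligand whose promoters also hold a κB-like match. Each sequence is the RefSeq promoter of GRCm38.p6, 250 bases before to 50 after the annotated start, 5′ to 3′ along the gene. Capitals mark matches, on either strand, to a κB-like string (GGG, any 2 bases, TT, any base, CC), an AP-1-like string (TGANTCA) or TATAAA. They lie at chr5:90890995-90891294 (plus strand, Cxcl1), chr5:90903649-90903948 (plus, Cxcl2), chr5:90785851-90786150 (plus, Cxcl3), chr3:107760420-107760719 (minus, Csf1), chr5:30012864-30013163 (plus, Il6) and chr1:83116516-83116815 (plus, Ccl20).
Cxcl1: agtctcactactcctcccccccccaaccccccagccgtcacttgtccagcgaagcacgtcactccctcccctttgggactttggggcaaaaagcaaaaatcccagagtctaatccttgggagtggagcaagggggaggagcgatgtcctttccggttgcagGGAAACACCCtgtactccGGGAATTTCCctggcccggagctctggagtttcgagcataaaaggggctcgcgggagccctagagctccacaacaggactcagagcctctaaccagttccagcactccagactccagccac
Cxcl2: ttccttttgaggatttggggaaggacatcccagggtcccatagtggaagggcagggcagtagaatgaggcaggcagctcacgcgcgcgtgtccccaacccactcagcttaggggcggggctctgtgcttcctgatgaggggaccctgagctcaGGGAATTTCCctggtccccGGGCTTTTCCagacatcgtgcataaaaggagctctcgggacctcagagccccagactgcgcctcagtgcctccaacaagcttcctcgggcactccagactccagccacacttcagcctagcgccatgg
Cxcl3: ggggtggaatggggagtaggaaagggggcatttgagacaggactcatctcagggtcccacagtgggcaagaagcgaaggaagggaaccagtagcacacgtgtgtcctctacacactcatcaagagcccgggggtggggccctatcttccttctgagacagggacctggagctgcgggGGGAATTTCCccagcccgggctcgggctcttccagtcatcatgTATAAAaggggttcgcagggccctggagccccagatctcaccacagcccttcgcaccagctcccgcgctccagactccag
Csf1: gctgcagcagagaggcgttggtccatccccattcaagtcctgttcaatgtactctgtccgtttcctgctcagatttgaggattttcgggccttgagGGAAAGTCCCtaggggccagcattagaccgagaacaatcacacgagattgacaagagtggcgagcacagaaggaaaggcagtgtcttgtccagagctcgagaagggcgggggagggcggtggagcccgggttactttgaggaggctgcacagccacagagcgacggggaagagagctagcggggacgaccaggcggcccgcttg
Il6: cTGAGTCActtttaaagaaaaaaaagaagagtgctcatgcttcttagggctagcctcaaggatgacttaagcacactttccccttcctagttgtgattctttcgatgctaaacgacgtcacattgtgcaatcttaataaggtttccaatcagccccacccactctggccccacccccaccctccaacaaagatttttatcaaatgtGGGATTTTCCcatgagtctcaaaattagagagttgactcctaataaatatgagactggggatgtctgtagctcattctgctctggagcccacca
Ccl20: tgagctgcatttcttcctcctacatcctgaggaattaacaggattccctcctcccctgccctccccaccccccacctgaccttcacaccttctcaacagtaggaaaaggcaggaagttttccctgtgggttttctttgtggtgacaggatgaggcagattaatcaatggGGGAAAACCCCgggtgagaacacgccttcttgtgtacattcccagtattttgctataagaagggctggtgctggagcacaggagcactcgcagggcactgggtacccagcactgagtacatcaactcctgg

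Counted from the start site, the Cxcl1 promoter held κB-like matches at -89 to -80 and -71 to -62, that of Cxcl2 at -97 to -88 and -78 to -69, and that of Cxcl3 at -73 to -64. The matches GGGAATTTCC at -71 in Cxcl1, -97 in Cxcl2 and -73 in Cxcl3 were identical in their letters. The 2 matches in Ccl20, at -81 and -80, overlap each other. RefSeq promoters were found for 55 of the 75 ligand genes (67 promoters), and 12 of the 67 (17.9%) held a κB-like match, against 4.79% of all 32851 promoters of the same length. AP-1-like matches, a motif that reads the same on both strands, were found in 20.9% of ligand promoters and 7.81% of all, and TATAAA in 32.8% and 13.6%. The κB-like share was 2 of 8 promoters for genes called in all 12 libraries, 3 of 6 for genes called in 1 to 11, and 7 of 53 for genes called in none. A match is a string of letters and not a bound site. Among the genes called in all 12 libraries, Csf3, Cxcl16, Cxcl5, Il15, Il23a, Il34 and Il7 were not in the promoter table.

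CpG content, which tracks promoter class, was set beside the calls. The median ratio of observed to expected CpG over the promoter windows was 0.33 in the 14 genes called everywhere and 0.201 in the 55 never called, against 0.455 and 0.218 in all protein-coding genes of the same status. In the CpG class from 0.2 to under 0.4, which held 39 of the 75 ligands, 10 ligands (25.6%) were called in all libraries, against 47.3% of all genes. Below 0.2, where 31 ligands lay, 1 ligand (3.23%) and 2.27% of all genes were called in all libraries. The promoter of Cxcl12, which encodes the ligand of CXCR4 and had a ratio of 0.722, held no peak in any library.

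None of the 12 inflammatory CC chemokines, which include Ccl2 and Ccl5, was called in any library, and of 11 other CC chemokines only Ccl25 was. Ccl20, Cxcl2, Il1b, Il33, Tnf and Csf2 were also called in none. Of 4 members of the IL-1 family, Il18 was called in 12 libraries, Il1a in 11 and Il1b and Il33 in none. Of the IL-10 family only Il24 was called, in 6 libraries. The nearest peak lay a median of 49.1 kb from the start sites of the 55 uncalled ligands and 80.8 kb from those of all 9811 uncalled genes, and 27 ligands (49.1%) had none within 50 kb in the median library, against 61.3% of uncalled genes. The Ccl2 to Ccl1 cluster with its 6 ligand genes had no peak within 20 kb in any library. The closest to a call were Cxcl2, with a peak at a median of 2.43 kb, Il25 at 3.08 kb, Ccl5 at 3.65 kb, Cxcl9 at 4.204 kb, Il9 at 4.63 kb and Tnf, the canonical activator of NF-κB, at 5.05 kb.

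The number of ligand promoters called was 17, 16 and 17 in the scramble libraries, 16, 17 and 14 in CPT1a knockout, 16 in each acetate library, and 17, 19 and 16 in KAT2a knockout. The lowest value belonged to the library of lowest depth, and the group means differed from scramble by -1, -0.667 and 0.667 genes for CPT1a knockout, acetate and KAT2a knockout. The number of all genes with a promoter peak was also lowest in that library (10950) and highest in KAT2a knockout replicate 2 (11659), the library with 19 ligands. At an equal calling depth of 0.55 the range over all libraries narrowed to 14 to 16.

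Because fold enrichment, the ratio of the summit signal to the local background, is not scaled between libraries, promoters were compared by rank. The rank percentile of a gene places its strongest promoter peak among those of the 10777 genes called in all 12 libraries, where 50 is the middle and 100 the strongest promoter. The 14 constant ligands covered most of this scale. Ccl25, a gut and thymus chemokine, had the highest mean rank over the 12 libraries at 87.5 (range 45.2 to 98.6). Its peak also covers the start of Elavl1, which encodes the RNA-binding protein HuR and is transcribed in the other direction, and every summit lay at -950 to -489 bp from the nearest Ccl25 start (negative is upstream), on the Elavl1 side. Csf3, which encodes G-CSF, the growth factor of neutrophils, followed at 74.8 (49.0 to 95.4), Csf1, the macrophage growth factor, at 65.5 (33.7 to 96.1) and Lif, a cytokine of the IL-6 family, at 56.0 (36.5 to 72.6). At the low end stood Cxcl16 at 20.5, Il18 at 16.6, Il17d at 14.5 and Il15 at 12.7. The ranges of neighbouring genes overlapped throughout this order, which pools the 4 groups and was not the same within each. In scramble, Cxcl5 and Il7 (both 76.3) stood above Csf3 (65.7). The peak of Cxcl16 covers starts of Zmynd15 and that of Il18 starts of Bco2, so these peaks are shared as well.

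**Figure D1:**
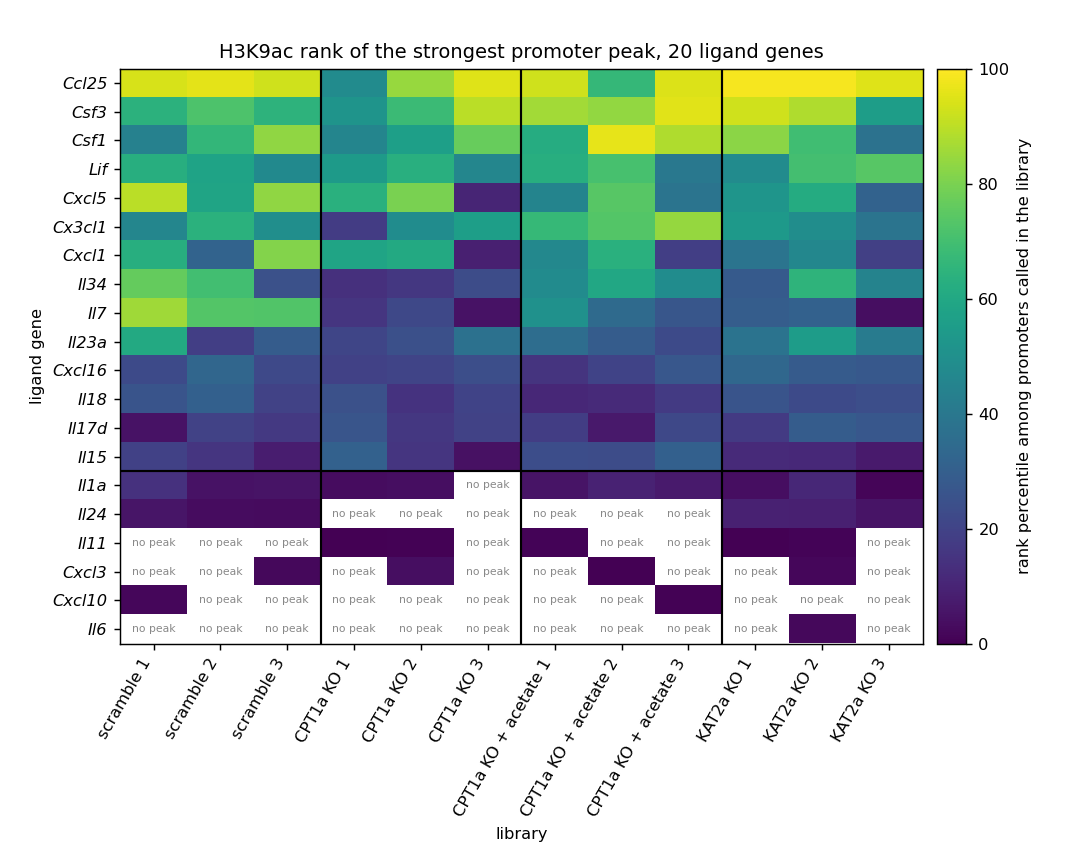
Rank percentile of the strongest promoter peak, by colour, for the 20 ligand genes called in at least 1 library (rows, the 14 constant ones above the line) in the 12 libraries (columns, groups divided by lines), among all promoters called in the same library. The partly called genes sit at the dark low end, and Il24 lacks a peak in all 6 CPT1a knockout libraries, with or without acetate.

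Il7 was the ligand whose mean rank differed most from scramble in each of the other 3 groups. It encodes interleukin 7, the survival factor of naive and memory T cells. Its promoter ranked at 84.8, 72.1 and 71.8 in scramble, at 10.4, 16.3 and 4.05 in CPT1a knockout, at 24.5, 25.5 and 0.715 in KAT2a knockout, and at 48.1, 32.2 and 22.2 in the acetate group. The scramble libraries stood above all 9 others. The mean rank in CPT1a knockout differed from scramble by -66.0 ± 5.54 percentile points (SE, n = 3 against 3), which passed the limma test on normal scores of the ranks (difference -2.06 ± 0.387, adjusted p = 0.0051). In KAT2a knockout the difference was -59.4 ± 9.14 points (limma adjusted p = 0.014). The acetate group differed from scramble by -42.1 ± 8.68 points, which did not pass (limma adjusted p = 0.087), and from CPT1a knockout by 23.9 ± 8.34 points (limma adjusted p = 0.50). The exact permutation p, two-sided, was 0.1 in each of these 4 comparisons, the smallest that 3 against 3 libraries allow. With the replicate number as a block, Il7 also passed in acetate against scramble.

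The fold enrichments behind these ranks were 27.1, 24.6 and 24.3 in scramble, 14.8, 20.7 and 7.16 in CPT1a knockout, 25.7, 18.7 and 18.1 in the acetate group and 21.8, 23.2 and 6.56 in KAT2a knockout. The lowest values, in CPT1a knockout replicate 3 and KAT2a knockout replicate 3, came from the shallowest library of each group. Among libraries of similar depth, scramble replicate 2 (depth 1.87) ranked Il7 at 72.1, acetate replicate 3 (1.91) at 22.2, KAT2a knockout replicate 2 (1.81) at 25.5 and CPT1a knockout replicate 1 (1.703) at 10.4. The peak covered the Il7 start in every library (chr3:7610480-7614649, GRCm38, at its widest extent), and its summit lay at 440 to 591 bp from the nearest start in scramble and at -416 to 395 bp in the knockouts without acetate. The KAT2a call was lost without scramble replicate 1 (limma adjusted p = 0.063), and the CPT1a call held without each library in turn.

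Il34, a second ligand of the macrophage receptor CSF1R, was the other call in CPT1a knockout. It had ranks of 75.2, 68.5 and 22.2 in scramble, 8.66, 10.2 and 22.1 in CPT1a knockout, 45.6, 58.6 and 45.5 in the acetate group and 22.9, 62.2 and 41.4 in KAT2a knockout. The difference between CPT1a knockout and scramble was -41.7 ± 17.2 points (limma adjusted p = 0.032), and the groups were separated by 22.1 against 22.2 at their edges. This call is not one of the Il34 coding promoter. No peak touched the start sites of its protein-coding transcripts in any library, and the peak ranked here lies about an annotated internal start of a processed transcript at chr8:110790888 (GRCm38). The summit of the ranked peak lay at -1606 to -1550 bp from that start in scramble and at 766 to 1001 bp in CPT1a knockout. In CPT1a knockout replicates 1, 2 and 3 a separate peak beside the ranked one, outside the window, had fold enrichments of 24.8, 24.7 and 15.6, where the ranked scramble peaks had 24.1, 23.7 and 12.5. With coding start sites alone, an alternative chosen after seeing the data, Il7 was the only ligand that passed in this comparison. The Il34 call was also lost without scramble replicate 1 (limma adjusted p = 0.13), scramble replicate 2 (0.10), CPT1a knockout replicate 1 (0.09) or CPT1a knockout replicate 2 (0.082).

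**Figure D2:**
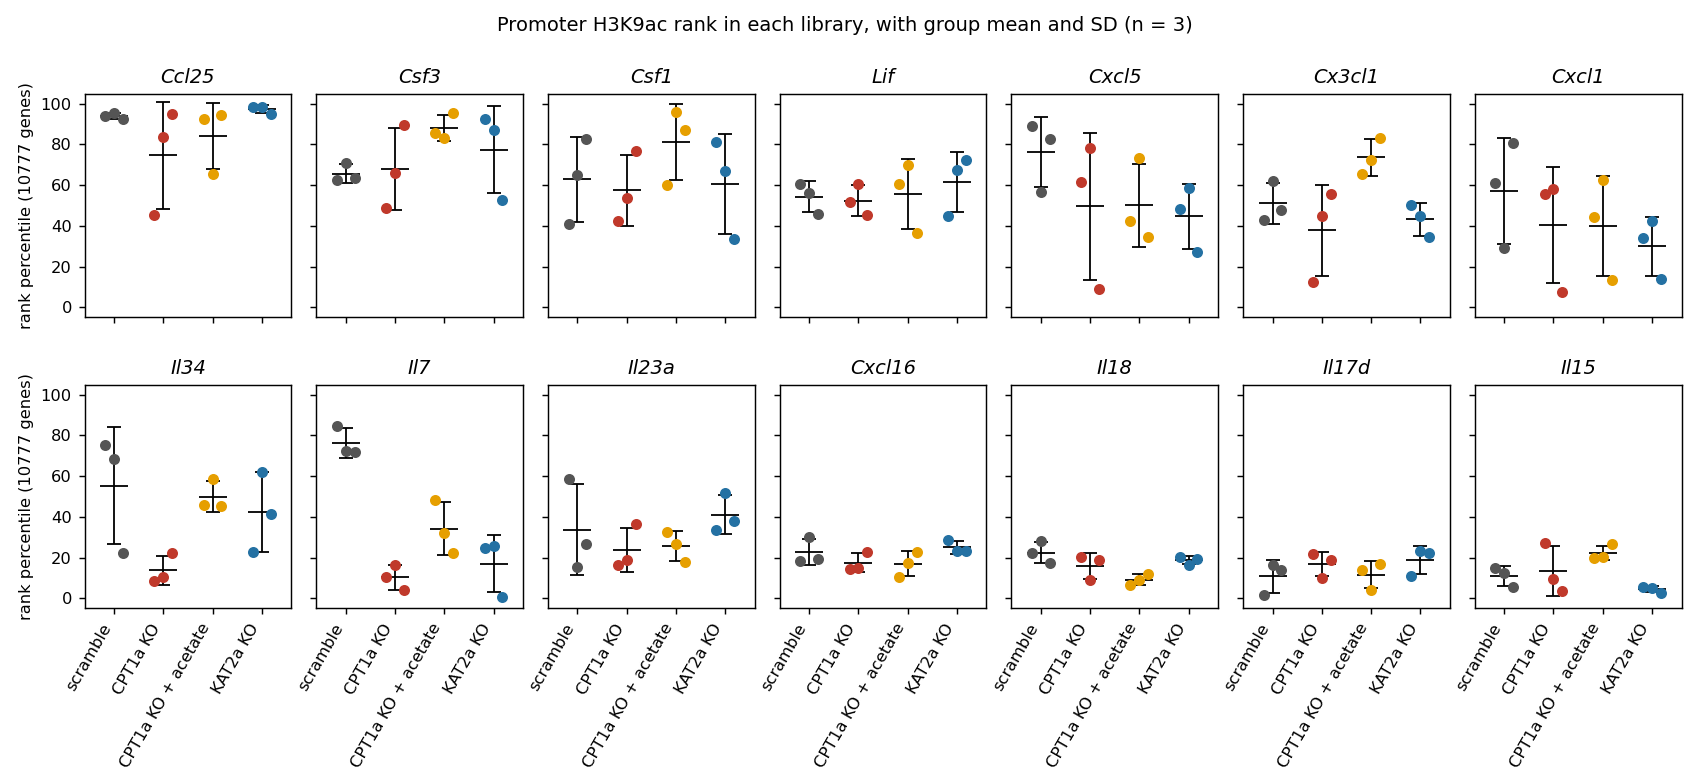
Rank percentile (vertical axis, 0 to 100, among 10777 genes) of the promoter peak of each of the 14 ligand genes called in all libraries, with 3 points per group (1 per library) and the group mean with its SD as a bar. Il7 sits at 71.8 to 84.8 in scramble and at 0.715 to 48.1 in the other 9 libraries, while for most other genes the groups overlap.

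Across the 14 ligands the calls were set beside the shares over all genes. In CPT1a knockout against scramble, 2 of 14 passed the rank test, beside 10.6% of all 10777 genes, and in KAT2a knockout against scramble 1 of 14, beside 3.83%. With acetate, 0 of 14 passed against CPT1a knockout, beside 0.0% of all genes, and 0 of 14 against scramble, beside 5.92%. At an unadjusted limma p under 0.05 the last counts were 3 (Cx3cl1, Il34 and Il7) and 2 (Il18 and Il7) ligands, beside 9.28% and 23.0% of all genes. The ranks of the groups did not overlap for 2 of 14 ligands in CPT1a knockout against scramble (30.9% of all genes), 1 in KAT2a knockout against scramble (29.3%), 3 with acetate against CPT1a knockout (14.2%) and 5 with acetate against scramble (31.9%). The median rank difference over the 14 genes was -8.08, -2.94, 6.16 and -5.60 points in these comparisons, against 0.217, 0.104, -0.481 and 0.148 over all genes. The comparisons with scramble share its 3 libraries and are not independent of each other.

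The neutrophil-attracting chemokines Cxcl1 and Cxcl5, which act through CXCR2, varied widely within groups. Cxcl5 had ranks of 89.3, 56.8 and 82.8 in scramble, 61.4, 78.5 and 9.11 in CPT1a knockout, 42.5, 73.2 and 34.6 in the acetate group and 48.5, 58.4 and 27.0 in KAT2a knockout. Cxcl1 ranked at 60.8, 29.2 and 80.8, at 55.8, 57.9 and 7.70, at 44.2, 62.3 and 13.4, and at 33.8, 42.2 and 13.7 in the same order. The groups overlapped for both genes. The difference from scramble was -26.6 ± 23.1 points for Cxcl5 and -16.5 ± 22.2 for Cxcl1 in CPT1a knockout (limma adjusted p = 0.23 and 0.46), and -31.7 ± 13.6 and -27.1 ± 17.2 in KAT2a knockout (0.25 and 0.35). Both genes had their lowest rank in CPT1a knockout replicate 3, the shallowest library. Ranked by -log10 p in place of fold enrichment, both passed in KAT2a knockout, where 2648 genes passed in all, and Cxcl5 passed in CPT1a knockout, where 3683 did.

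For Csf3, Cx3cl1, Il15 and Il18 the acetate and scramble ranks did not overlap, and the test did not pass. Csf3 had ranks of 62.5, 71.0 and 63.4 in scramble, 49.0, 65.9 and 89.4 in CPT1a knockout, 85.5, 83.2 and 95.4 in the acetate group and 92.5, 87.0 and 52.8 in KAT2a knockout. The acetate libraries stood above scramble by 22.4 ± 4.62 points (limma adjusted p = 0.23). Cx3cl1, the membrane-bound chemokine fractalkine, had ranks of 43.1, 62.3 and 47.9 in scramble, 12.6, 45.0 and 55.5 in CPT1a knockout, 65.5, 72.2 and 83.2 in the acetate group and 50.4, 44.9 and 34.4 in KAT2a knockout. Its acetate values lay above those of CPT1a knockout by 35.9 ± 13.9 points (limma adjusted p = 0.42) and above scramble by 22.5 ± 7.75 (0.26). For Il18 the acetate libraries ranked at 6.56, 8.71 and 11.9 and scramble at 22.04, 27.9 and 17.3 (difference -13.4 ± 3.45 points, limma adjusted p = 0.12). For Il15 the difference was 11.4 ± 3.51 points (limma adjusted p = 0.29). The remaining constant ligands, Ccl25, Csf1, Lif, Il23a, Cxcl16 and Il17d, overlapped between groups in all 4 comparisons, with limma adjusted p from 0.31 to 0.99.

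Peak width gave a different set of calls. The median width over the 10777 genes was 2405 ± 419 bp in scramble (SD, n = 3) and 1862 ± 362 in CPT1a knockout and was smallest in the shallowest library, so widths too were compared as ranks within a library. Csf3 had one of the widest promoter peaks of the genome in each library, from 8566 to 13270 bp, at the 99.6 to 99.9 percentile. In all 12 libraries it covered both the start of Csf3 and a start of its neighbour Med24, which encodes a Mediator subunit (chr11:98698668-98711937 at its widest). Lif followed with 2882 to 8948 bp, at the 93.3 to 99.6 percentile. The Lif peak lay on its downstream coding start at chr11:4267095 and the processed transcript next to it. None of the 12 peaks covered the upstream coding start at chr11:4257557, and together they spanned chr11:4259591-4270143.

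Il23a, which encodes the p19 subunit of interleukin 23, had a narrower peak in CPT1a knockout. Its widths were 2967, 2711 and 2526 bp in scramble, 1548, 1590 and 1330 bp in CPT1a knockout, 1784, 1456 and 1829 bp in the acetate group and 2206, 2068 and 1876 bp in KAT2a knockout. In bp the scramble libraries were wider than all others, and the share of all genes with this separation was not counted. In width ranks KAT2a knockout (up to 53.0) overlapped scramble (from 52.2). The width rank fell by 28.5 ± 7.55 points from scramble to CPT1a knockout (SE, limma adjusted p = 0.031), while with acetate the difference from scramble was -24.7 ± 4.92 points (limma adjusted p = 0.072). The call was lost without scramble replicate 2 or 3 or CPT1a knockout replicate 1 or 2 (limma adjusted p = 0.075 to 0.12).

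In KAT2a knockout Csf1 and Il15 were narrower. The Csf1 peak measured 5300, 4167 and 5069 bp in scramble, 3429, 3369 and 2346 bp in CPT1a knockout, 3738, 3102 and 3958 bp in the acetate group and 3235, 3480 and 2630 bp in KAT2a knockout. The Il15 peak, at the gene of a growth factor of NK cells and memory T cells, measured 3053, 2958 and 2817 bp in scramble, 1781, 2027 and 1543 bp in CPT1a knockout, 2390, 1824 and 2809 bp in the acetate group and 1569, 2057 and 1675 bp in KAT2a knockout. In bp, every scramble peak of both genes was wider than any peak of the other 9 libraries. In width ranks the acetate libraries overlapped scramble for both genes, and the CPT1a knockout libraries did for Il15. The share of all genes with such a separation in bp was not counted. The width ranks in KAT2a knockout differed from scramble by -11.8 ± 1.46 points (Csf1) and -32.5 ± 8.91 points (Il15), both with a limma adjusted p of 0.034. Both calls were lost without scramble replicate 2 or 3 or KAT2a knockout replicate 1 or 2, and that of Csf1 also without KAT2a knockout replicate 3, CPT1a knockout replicate 2 or acetate replicate 1. The Csf1 call was lost with the replicate number as a block (1 ligand called, Il15).

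With acetate, the width of the internal Il34 peak was 1705, 1143 and 2495 bp, against 6382, 3657 and 5054 bp in scramble (width rank -54.8 ± 11.8 points, limma adjusted p = 0.031). The CPT1a knockout values of 2991, 2722 and 1328 bp did not overlap scramble either (limma adjusted p = 0.15). In scramble replicates 1 and 3 and KAT2a knockout replicate 2, 1 peak spanned both acetylated stretches of this locus, which formed separate peaks in the other 9 libraries. The acetate call was lost without scramble replicate 1 or 3 or acetate replicate 1 or 2 (limma adjusted p = 0.062 to 0.097), and with the replicate number as a block (limma adjusted p = 0.051).

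In counts, 1 of 14 ligands passed the width test in CPT1a knockout against scramble (13.1% of all genes), 2 of 14 in KAT2a knockout against scramble (9.97%), 0 of 14 with acetate against CPT1a knockout (0.0%) and 1 of 14 with acetate against scramble (7.43%). The 4 calls that passed were all toward narrower peaks. Against CPT1a knockout, 0 ligands reached an unadjusted limma p under 0.05 with acetate, beside 5.68% of all genes.

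**Figure D3:**
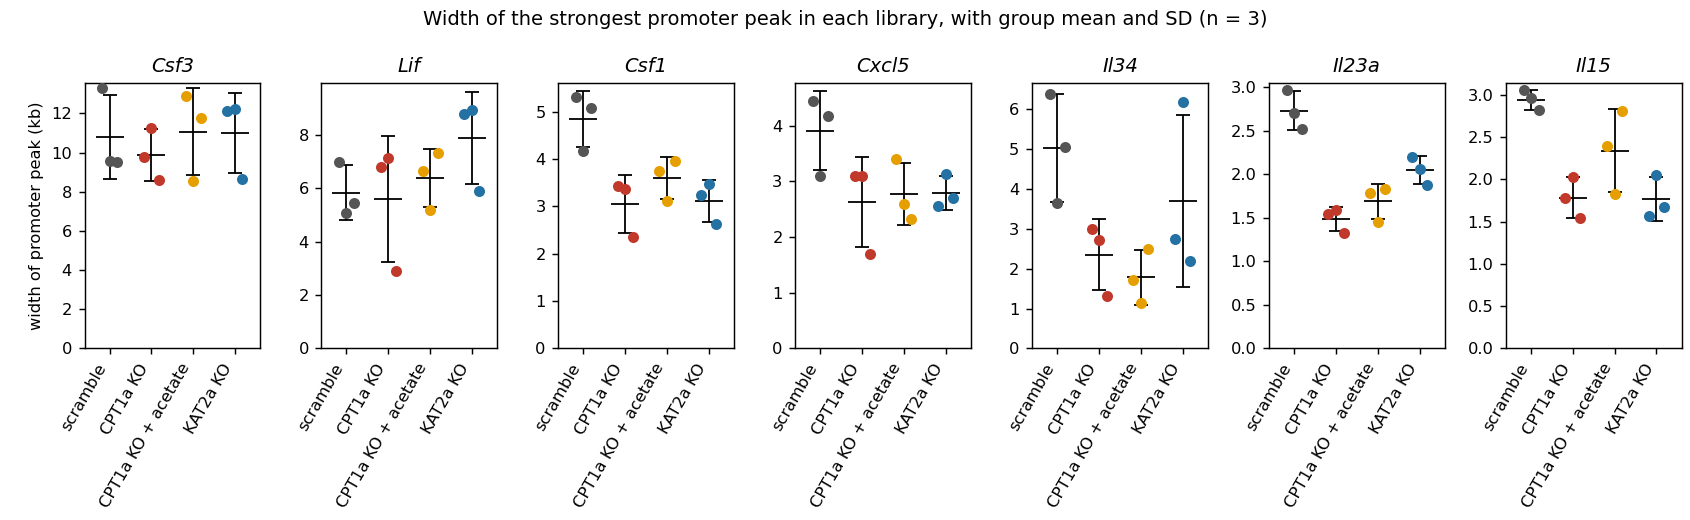
Width in kb (vertical axes, each from 0) of the strongest promoter peak at 7 ligand genes in each library, with 3 points per group and the group mean with its SD. Csf3 measures at least 8566 bp in every library. The scramble peaks of Il23a, Il15 and Csf1 lie above all others in bp, without allowance for depth, while the width ranks of each overlap scramble in some groups.

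Of the 6 ligands called in some libraries, Il24 divided the groups. Il24 encodes a cytokine of the IL-10 family and lies in one cluster with Il20, Il19 and Il10, none of which was called. Its promoter held a peak in 3 of 3 scramble libraries, with fold enrichments of 6.01, 5.13 and 4.96, and in 3 of 3 KAT2a knockout libraries, with 10.97, 10.96 and 7.46. It held none in the 3 CPT1a knockout and the 3 acetate libraries. The widths were 781, 590 and 613 bp in scramble and 1548, 1603 and 492 bp in KAT2a knockout (chr1:130886089-130887711 in all), and the 6 peaks ranked at 2.96 to 9.36 among the promoters called in their library. Presence in all 3 libraries of a group with absence from all 3 of its comparison group was found for 1 of the 20 ligands called anywhere in CPT1a knockout against scramble (0.419% of the 11944 genes called anywhere) and for 1 of 20 with acetate against scramble (0.628%), Il24 in both. The counts were 0 of 20 in KAT2a knockout against scramble (1.37%) and 0 of 20 with acetate against CPT1a knockout (0.0335%). Scramble replicates 2 and 3, at depths of 1.87 and 1.90, had the peak, while acetate replicate 3, at 1.91, and CPT1a knockout replicates 1 and 2, at the lower depths of 1.703 and 1.56, had none. At the equal depth of 0.55 the 3 KAT2a knockout peaks remained and those of scramble were lost, so that at this depth scramble and both CPT1a groups were alike in having no call.

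Il1a, which encodes the alarmin interleukin 1 alpha, was called in all libraries but CPT1a knockout replicate 3, the shallowest. Its fold enrichment was 9.66, 6.24 and 6.0 in scramble, 6.10 and 6.65 in CPT1a knockout, 7.63, 10.2 and 8.72 in the acetate group and 6.46, 13 and 4.90 in KAT2a knockout. The strongest peak did not cover the start site in any library and had its summit 513 to 1654 bp downstream, inside the gene, and in scramble replicate 1 alone a weaker peak lay at the start. Cxcl3 was called in 1 library of each group (fold enrichment 3.90 to 6.49), Il11 in 2 CPT1a knockout, 1 acetate and 2 KAT2a knockout libraries (3.65 to 4.55), Cxcl10, an interferon-induced chemokine, in 1 scramble and 1 acetate library (4.29 and 3.64), and Il6 in KAT2a knockout replicate 2 alone (5.39). None of these 4 remained at equal depth.

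**Figure D4:**
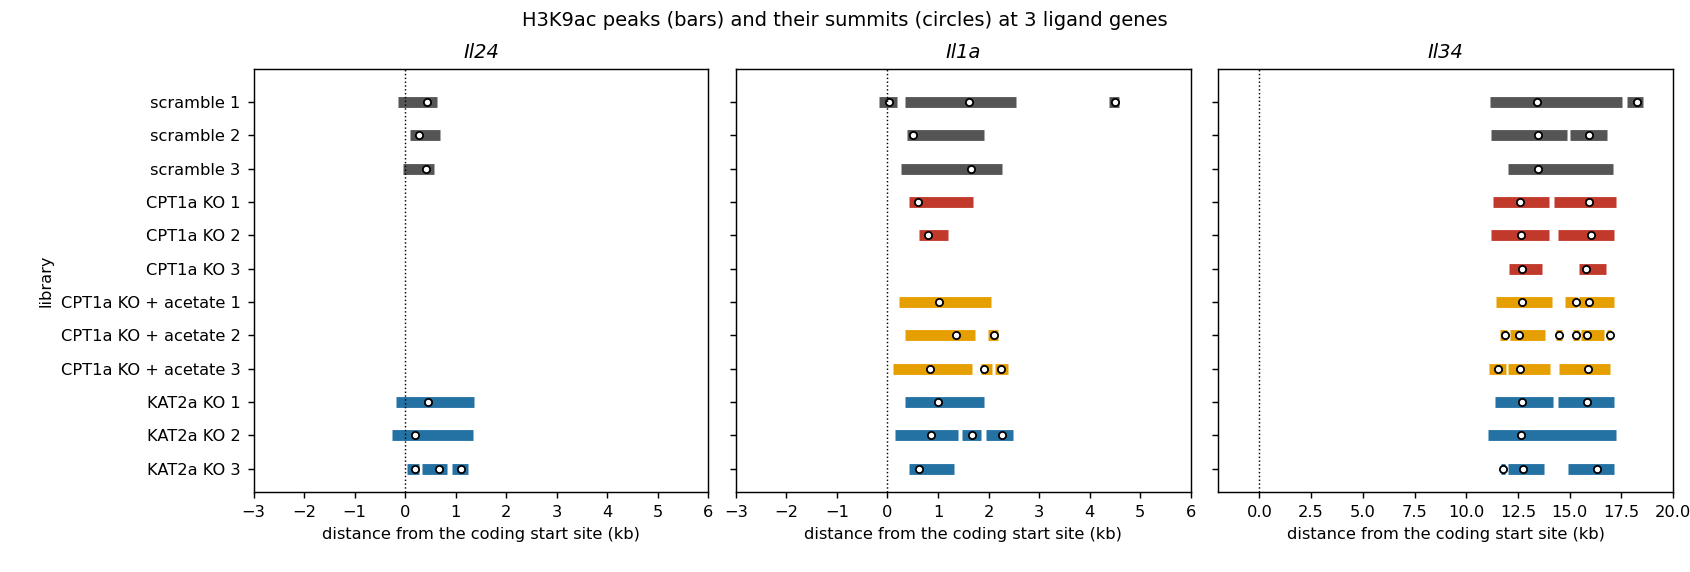
Peaks (bars) and summits (circles) at Il24, Il1a and Il34 in the 12 libraries (rows), against the distance in kb from the most upstream coding start site, with positive values downstream. Il24 shows peaks in scramble and KAT2a knockout, the strongest Il1a peaks lie inside the gene, and at Il34 no peak touches the coding start while 2 neighbouring stretches about 11 to 18 kb into the gene carry the signal.

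The Cxcl5 to Cxcl2 cluster on chromosome 5 had 5 regions called in all 12 libraries. They were the Cxcl5 promoter, the Cxcl1 promoter and 3 regions without a coding start, at chr5:90875074-90876657, chr5:90879577-90882638 and chr5:90899728-90901695. The first of these had fold enrichments of 3.36 to 16.1 (the strongest peak of each library), the second 5.98 to 17.0 and the third, which lies between Cxcl1 and Cxcl2, 11.1 to 19.9. The third was the peak nearest to Cxcl2 and ended 2.18 to 3.06 kb from its start, outside the promoter window.

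**Figure D5:**
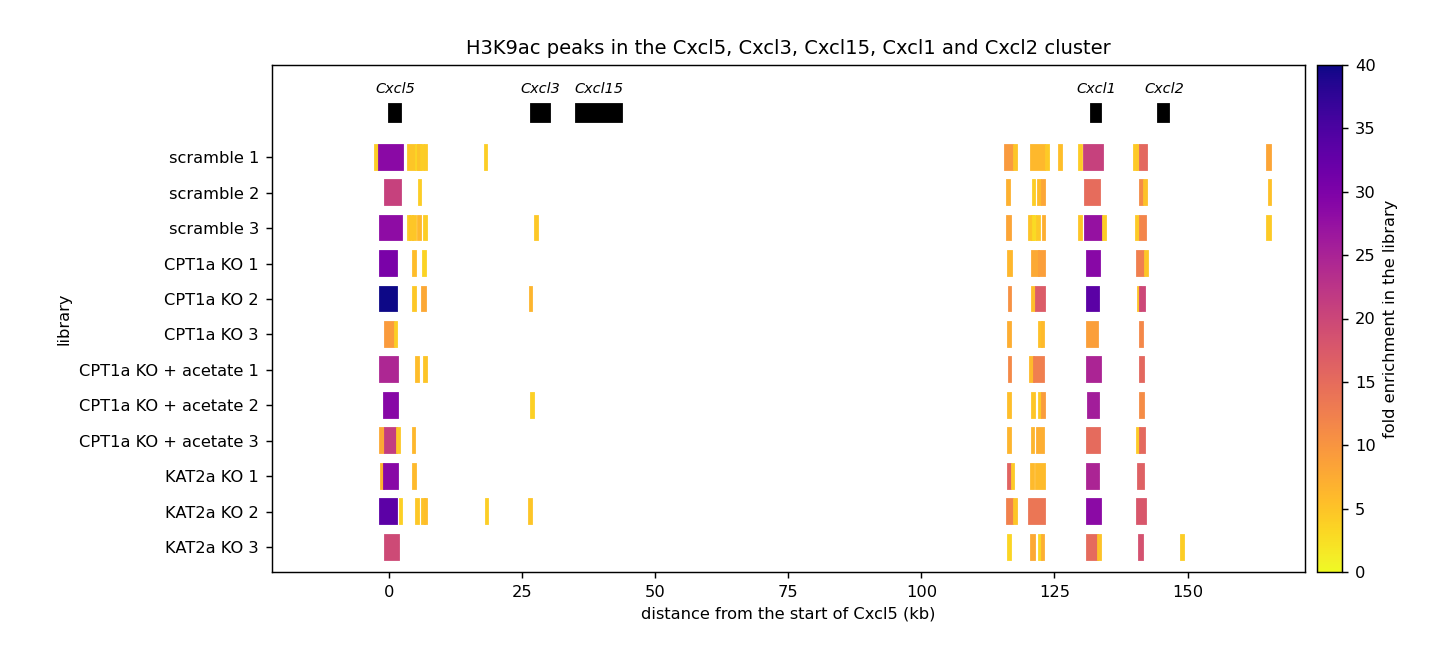
Peaks in the Cxcl5, Cxcl3, Cxcl15, Cxcl1 and Cxcl2 cluster against the distance in kb from the start of Cxcl5, by library (rows), coloured by fold enrichment in that library, with genes as black boxes. The Cxcl5 and Cxcl1 promoters reach fold enrichments of 39.9 and 33.5, Cxcl2 has no peak at its start, and a region between Cxcl1 and Cxcl2 is called in all 12.

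The chemokine receptors were mostly uncalled. Of 23 chemokine receptor promoters, 3 were called in all libraries (Ccr10, Ackr3 and Ccrl2), 1 in some and 19 in none, including Cxcr2, Ccr2 and Cxcr4. Of 45 cytokine receptor promoters 16 were called in all, 8 in some and 21 in none, beside the 45.1% of all genes called in none. Il7r and Csf1r, the receptors of interleukin 7 and of CSF1 and interleukin 34, were in none. Of the 16, Osmr was higher than scramble in CPT1a knockout (limma adjusted p = 0.0012), in KAT2a knockout (0.0031) and with acetate (0.002). Osmr, the receptor subunit for oncostatin M, had ranks of 0.0634 ± 0.0559 in scramble, 8.00 ± 6.03 in CPT1a knockout, 7.44 ± 1.64 in KAT2a knockout and 9.66 ± 5.24 in the acetate group (SD, n = 3). Il11ra1, the interleukin 11 receptor, was lower in KAT2a knockout, at 0.179 ± 0.094 against 6.28 ± 1.47 (limma adjusted p = 0.011). Osmr in scramble and Il11ra1 in KAT2a knockout lay near the floor of the rank scale, where normal scores stretch small percentile differences. No other receptor of both lists passed the rank test in any comparison.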

How the data were processed

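H3K9ac ChIPmentation was deposited for 12 libraries, and the 12 input samples of the series were not analysed here. According to their methods, the authors trimmed reads, aligned them to mm10 with BWA and removed duplicates with Picard, whereas the submitters' processing notes name Bowtie2, SAMtools and MACS2 and the builds mm10 and dm6. The authors called peaks separately for each library. The fold enrichment in each list is a ratio to the local background, as deposited, beside a -log10 p and a -log10 q-value that refer to that list alone. None is scaled between libraries, so a change in total H3K9ac could not be measured here. The smallest deposited -log10 q was 2.00052. The exogenous Drosophila chromatin of the methods was not used here.

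Groups and replicate numbers came from the labels. For each gene the strongest peak touching the 1000 bp on either side of any GENCODE vM21 start site was taken, and ranks were computed within each library over the 10777 genes called in all 12. Ranks and widths were converted to normal scores and fitted across all these genes and all 12 libraries with limma 3.58.1 (R 4.3.3, empirical Bayes with a trend, group means), with Benjamini-Hochberg adjustment over 10777 genes and a threshold of 0.05. Single genes were also tested by two-sided exact permutation over 20 assignments. The SE of a difference in percentile points is that of the group means. Both steps were tested on simulated data. Calling depth was recovered from fold enrichment and p, assuming the formulas of MACS2, for peaks with -log10 p below 60. To equalise depth, signal and background were scaled to a depth of 0.55 and peaks with -log10 p of at least 5 kept. Other alternatives were a window of 500 bp, peaks with -log10 q of at least 5, summits in the window, lists of 16201 peaks, ranking by -log10 p, removal of the GC trend in 50 bins, the percentile scale, a replicate block, leaving out each library and, added after seeing the data, start sites of coding transcripts. Sharing a replicate number across groups was checked as a pairing: the 18 correlations of deviations between same-numbered libraries ran from -0.063 to 0.0595, so the numbers were not taken as pairs.

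The members, gene lists and alternatives were chosen with earlier results of these data known. Named were all ligands called in any library, a list of uncalled inflammatory ligands, and receptors past the test.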

Additional observations from a re-analysis of the deposited data

How the results depend on the processing

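Of the ligand calls, the rank difference of Il7 between CPT1a knockout and scramble kept its direction and its side of the threshold under all 10 other settings and without each library in turn (-69.0 to -61.7 points). The difference was -52.3 points when ranked by -log10 p and -58.3 with the GC trend removed, where the limma adjusted p was 0.050, at the threshold. The count of ligands past the rank test in CPT1a knockout against scramble, 2, was 1 with a 500 bp window, with summits in the window, with start sites of coding transcripts (chosen after seeing the data), with the GC trend removed and on the percentile scale, and 1 to 2 without single libraries. Ranking by -log10 p gave 3 ligands in CPT1a knockout against scramble (Cxcl5, Il34 and Il7), where 3683 of all 10777 genes passed. It gave 3 ligands in KAT2a knockout against scramble, where 2648 genes passed, and 3 in acetate against scramble, where 2859 did. In acetate against CPT1a knockout it gave 1 (Cx3cl1), where 37 genes passed in all. The count in KAT2a knockout was 0 to 1 without single libraries, and 0 without scramble replicate 1. In acetate against scramble it was 1 with the GC trend removed (Il15), 1 on the percentile scale (Il7), 1 with the replicate block (Il7), and 0 to 1 without single libraries. Leaving out single libraries gave 0 throughout in acetate against CPT1a knockout, for ranks and widths.

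For widths, the count was 2 on the percentile scale in CPT1a knockout against scramble and 0 to 3 without single libraries, the 3 (Il1a, Il23a and Lif) without CPT1a knockout replicate 3. In KAT2a knockout it was 1 with the replicate block and 0 to 3 without single libraries. In acetate against scramble it was 0 with summits in the window, with coding start sites and with the replicate block, and 0 to 2 without single libraries. The replicate numbers did not pair the libraries, and 2 of 12 libraries correlated best with one of their own number. The difference in called ligand promoters between acetate and scramble, -0.667, was -1.33 with stricter peaks, 0.333 at equal list length and 0.333 at equal calling depth. The ranks did not overlap in 11 of 56 gene and comparison pairs, beside 14.2% to 31.9% of all genes in single comparisons. The number was 20 when ranked by -log10 p and 12 to 18 without single libraries. Shares of all genes at these settings were not counted. Smaller groups overlap less easily, and other causes of these changes were not tested. Cxcl3, Cxcl10, Il6 and Il11 were called in 0 libraries at equal depth, a setting that by construction removes weak peaks.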
